A study of Danio rerio with 6 samples.

Results

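Wnt ligands and secreted Frizzled-related proteins act at the outermost step of Wnt signalling, and this account follows 10 of their genes in the developing zebrafish heart. Members were chosen by name, as the rows of the deposited table annotated *wnt2ba*, *wnt2bb*, *wnt5a*, *wnt5b*, *wnt9a*, *wnt9b*, *wnt11*, *wnt11r*, *sfrp1a* and *sfrp5*. Each name matched 1 row, which gave 8 ligand genes and 2 antagonist genes out of 31701 genes in all. They were picked with earlier results of these data known, so how many of them moved is not independent evidence about the family.

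The pools compared were whole hearts of larvae labelled mutant, and whole hearts of their wild-type (WT) siblings. Hearts were dissected by hand between 57 and 59 hours post fertilization, 23 hearts to a pool, and 3 pools of each genotype were sequenced. The series title names Wwtr1 (Taz), a transcriptional coactivator controlled by the Hippo kinases. The labels give no allele, strain or zygosity, and a pool of whole hearts mixes chambers, valves and cell layers, so in these bulk samples fewer cells of a type and less RNA per cell cannot be told apart. Values are the authors' normalised read counts, rounded to whole numbers. *wwtr1* transcripts stood at 128, 151 and 100 in the 3 mutant pools, against 362, 416 and 471 in the 3 WT pools. The groups did not overlap, and the log2 change was −1.72 (standard error, SE, 0.155; limma, Benjamini-Hochberg adjusted p = 0.000251).

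Wnt proteins are secreted, lipid-modified signals that bind Frizzled receptors on nearby cells. With Lrp5 or Lrp6 as co-receptor they stabilise beta-catenin, which then acts with Tcf and Lef factors on target genes, while ligands such as Wnt5 and Wnt11 are known for steering cell polarity and movement without beta-catenin. Secreted Frizzled-related proteins carry a cysteine-rich domain like that of the receptors, bind Wnts outside the cell and thereby mostly dampen the signal. In the vertebrate heart the pathway is known for roles in the specification of heart muscle, the outflow tract, the atrioventricular valves and electrical coupling between muscle cells.

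The deposited values summed to between 21068538 and 21968397 in the mutant libraries and between 19187058 and 25227868 in the WT libraries, and features annotated as ribosomal RNA took 40.4% to 43.9% of each total. Defining markers of heart muscle were present throughout: their 8 genes summed to 394335 to 435178 in mutant and 390487 to 461166 in WT hearts. Markers of tissue outside the heart were present too. The 6 skin genes summed to 40528 to 50040 in mutant and 34554 to 53774 in WT hearts. Skeletal muscle genes summed to 20512 to 27506 in mutant and 20000 to 34136 in WT hearts. Cartilage and pharyngeal mesenchyme genes summed to 3864 to 5633 in mutant and 3724 to 7001 in WT hearts. Which tissue gave the counts of the 10 genes was not tested. WT replicate 3 stood apart in a list of 6 pharyngeal endoderm and gut genes, which summed to 374 there, against 91 to 131 in mutant hearts and 147 and 149 in the other WT hearts. Its value for *fabp10a*, a liver fatty acid binding protein gene, was 87, against 0 to 2 in mutant hearts and 3 and 25 in the other WT hearts.

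Of the 10 genes, 8 were tested, the test being open to genes with values of 10 or more in 3 or more libraries. All 8 stood at 10 or more in every mutant and every WT library, so none entered the test through 1 genotype alone. None of the 8 passed the test across the whole table, where a call is an adjusted p under 0.05. That threshold was passed by 7 of 18901 tested genes, or 0.037%, of which 0.0106% were higher and 0.0265% lower in mutant hearts. Without a correction, 3 of the 8 (*wnt2bb*, *wnt5b* and *sfrp5*) had p under 0.05, beside 6.6% of all tested genes. The mutant and WT values did not overlap in 3 of the 8 (*wnt2ba* and *wnt2bb*, higher in mutant, and *sfrp5*, lower), beside 11.1% of all tested genes, 5.57% higher and 5.53% lower in mutant. Their median log2 change was 0.07, and that of all tested genes was −0.0029.

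**Figure D1:**
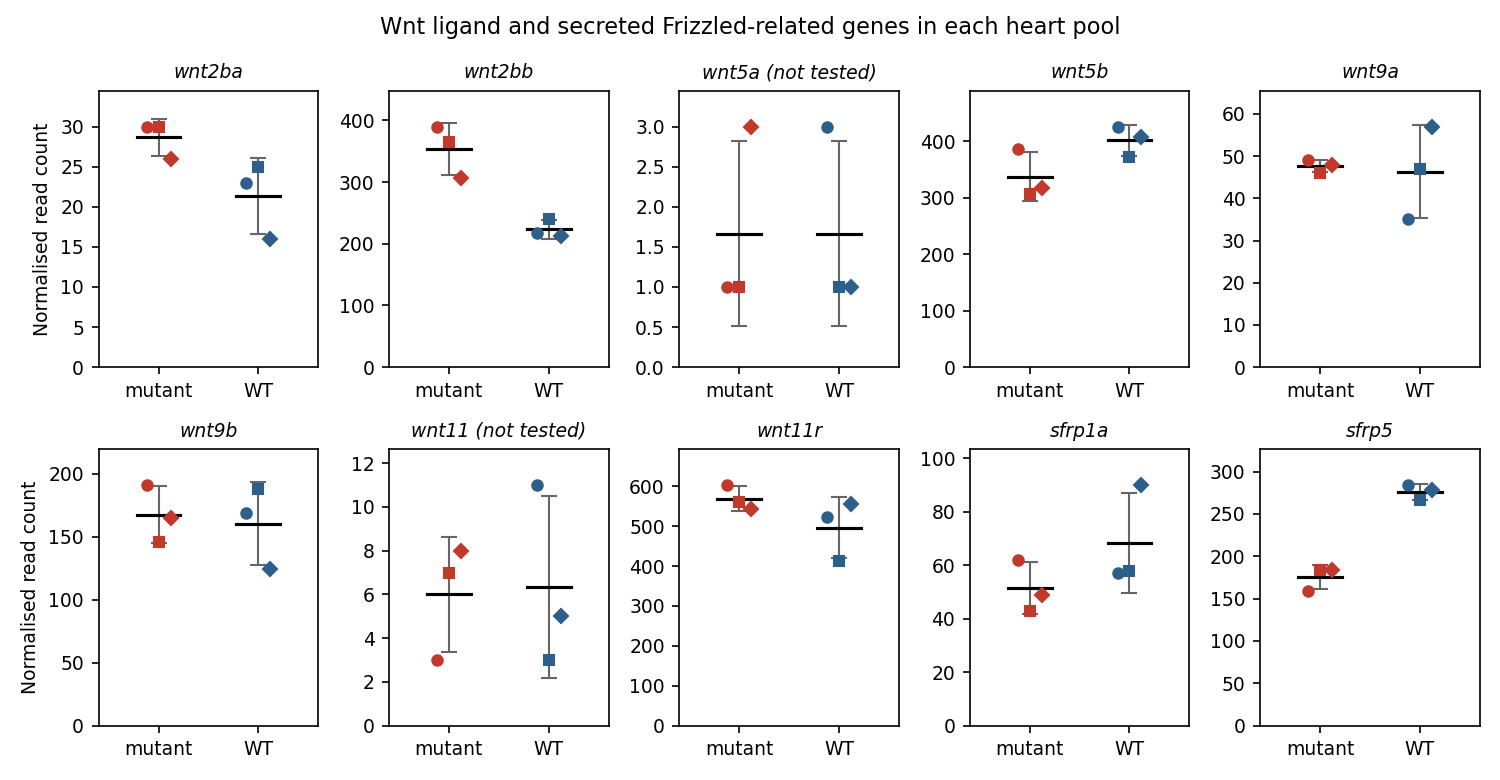
Normalised read count (vertical axes, each starting at 0) of the 10 genes in the 3 mutant and the 3 WT heart pools; circles, squares and diamonds are replicates 1, 2 and 3, black lines are means and grey bars are ± 1 SD (n = 3). The mutant points of *wnt2bb*, at 307 to 390, lie above all WT points, at 212 to 241, and those of *sfrp5*, at 159 to 184, lie below all WT points, at 266 to 284.

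Among the 6 tested ligands, *wnt2bb* showed the largest log2 difference. This gene is known in zebrafish from the *prometheus* mutant, in which the liver bud forms late, and its product signals through beta-catenin. It had 390, 365 and 307 normalised counts in mutant hearts, against 217, 241 and 212 in WT hearts. Every mutant pool was above every WT pool. The means were 354 ± 42.6 in mutant and 223 ± 15.5 in WT hearts (SD, n = 3 each), a log2 change of 0.66 or 1.58-fold (SE 0.122, 95% interval 0.40 to 0.92). The gene ranked 18 of 18901 by p and missed the threshold (limma, unadjusted p = 8.58e-05, adjusted p = 0.0901). It passed without WT replicate 2, with an adjusted p of 0.0448, and the range over the 6 fits that each left out 1 library was 0.0448 to 0.481. The gene (ENSDARG00000032234) has coordinates 27724411 to 27749646 on chromosome 8 of the GRCz10 assembly, plus strand, and no other gene of the table overlaps it.

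Its paralogue *wnt2ba* had low values with the same order of groups. It stood at 30, 30 and 26 in mutant hearts and at 23, 25 and 16 in WT hearts. The groups did not overlap, but the highest WT value was 1 below the lowest mutant value. The log2 change of 0.43 had a wide 95% interval, −0.24 to 1.098, and did not pass (SE 0.312, limma, adjusted p = 0.866); without WT replicate 3 it was 0.25. Whether the changes of the 2 paralogues differ was not tested. *wnt2ba* (ENSDARG00000005050) lies on chromosome 6, from 48254690 to 48272928.

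The ligands best known for polarity and cell movement gave 2 well-covered genes, *wnt5b* and *wnt11r*. *wnt5b*, the gene of the zebrafish *pipetail* mutant with its shortened body axis, had 387, 307 and 318 normalised counts in mutant hearts and 426, 372 and 408 in WT hearts. Mutant replicates 2 and 3 were below all WT pools, and mutant replicate 1 lay within the WT range. The log2 difference was −0.26 (SE 0.116, 95% interval −0.51 to −0.01), with an unadjusted p of 0.0427 and an adjusted p of 0.753 (limma). This gene (ENSDARG00000102464, plus strand of chromosome 4, 8531664 to 8662201) spans 3 shorter genes on the opposite strand, among them *fbxl14b*, at 113, 143 and 124 in mutant and 124, 109 and 134 in WT hearts. The sources used here do not say whether counting used strand, so where exons overlap the reads of such pairs may be mixed.

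*wnt11r* encodes a Wnt11 ligand known from *Xenopus* for its part in shaping the heart tube. The gene name table lists its identifier, ENSDARG00000014796, as *WNT11*, and lists the identifier that the deposited table calls *wnt11*, ENSDARG00000004256, as *wnt11f2*. Values of *wnt11r* were 603, 560 and 544 in mutant hearts and 522, 412 and 556 in WT hearts. WT replicate 2 was the lowest pool, and WT replicate 3 lay within the mutant range. The log2 difference of 0.21 did not pass (SE 0.116, 95% interval −0.04 to 0.45, limma, adjusted p = 0.818), and without WT replicate 2 it was 0.08.

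The other gene of this pair, *wnt11*, is known from the zebrafish *silberblick* mutant, in which gastrulation movements fail. It had 3, 7 and 8 normalised counts in mutant hearts and 11, 3 and 5 in WT hearts. *wnt5a*, known in mice for its part in the outflow tract, had 1, 1 and 3 in mutant hearts and 3, 1 and 1 in WT hearts. Neither reached a value of 10 in enough libraries to be tested, the groups overlapped, and a difference in them was not detectable at values this low. *wnt5a* (ENSDARG00000104973, minus strand of chromosome 8, 53774616 to 53850933) also encloses *lrtm1* on the same strand, at 1, 11 and 2 in mutant and 4, 6 and 4 in WT hearts.

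The Wnt9 ligands did not pass either. In zebrafish *wnt9b* is known as a flow-responsive ligand of the endocardium beside the forming valve, and *wnt9a* for the early expansion of blood stem cells. *wnt9b* stood at 191, 146 and 165 in mutant hearts and 169, 188 and 124 in WT hearts. The pools of the genotypes were intermingled, and the log2 difference was 0.07 (SE 0.168, 95% interval −0.29 to 0.43, limma, adjusted p = 0.975). Leaving out mutant replicate 1 turned it to −0.03, and leaving out WT replicate 3 turned it to −0.10. *wnt9b* (ENSDARG00000037889, plus strand of chromosome 3, 37433027 to 37439762) lies wholly within the span of *arf2a* on the opposite strand, which had 804, 789 and 726 in mutant and 819, 835 and 864 in WT hearts, so the 2 genes' reads may be mixed where exons overlap.

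*wnt9a* (ENSDARG00000063437, chromosome 2, 3370164 to 3439840) had 49, 46 and 48 normalised counts in mutant hearts and 35, 47 and 57 in WT hearts. The mutant pools were close together and lay inside the wider WT range. The log2 difference was 0.07 (SE 0.243, 95% interval −0.45 to 0.59, limma, adjusted p = 0.985), and without WT replicate 1 it was −0.12.

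Both antagonists had log2 changes below 0. *sfrp5*, known in mice as a marker of progenitors of the heart's venous pole and in *Xenopus* as a Wnt antagonist of the foregut, had 159, 184 and 184 normalised counts in mutant hearts, against 284, 266 and 278 in WT hearts. The highest mutant pool was well below the lowest WT pool. The means were 176 ± 14.4 in mutant and 276 ± 9.16 in WT hearts (SD, n = 3 each), a log2 change of −0.65 or 1.57-fold lower (SE 0.12, 95% interval −0.91 to −0.39). It ranked 17 of 18901 by p and missed the threshold (limma, unadjusted p = 8.02e-05, adjusted p = 0.0892). With each library left out in turn the log2 change stayed between −0.69 and −0.58 and the adjusted p between 0.0734 and 0.428. *sfrp5* (ENSDARG00000039041) lies on the minus strand of chromosome 13, from 39785661 to 39821445, with no overlapping gene.

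*sfrp1a* had 62, 43 and 49 normalised counts in mutant hearts and 57, 58 and 90 in WT hearts. The value in WT replicate 3 was the highest, and the other WT pools lay within the mutant range. The log2 difference was −0.39 (SE 0.240, 95% interval −0.90 to 0.12, limma, adjusted p = 0.844). Without WT replicate 3, the pool with the highest endoderm and gut sum, it was −0.18. The part of such tissue in this shift was not tested. The gene (ENSDARG00000035521) lies on chromosome 5 from 26888822 to 26938592. None of the 10 genes lies on chromosome 22, which carries *wwtr1*.

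**Figure D2:**
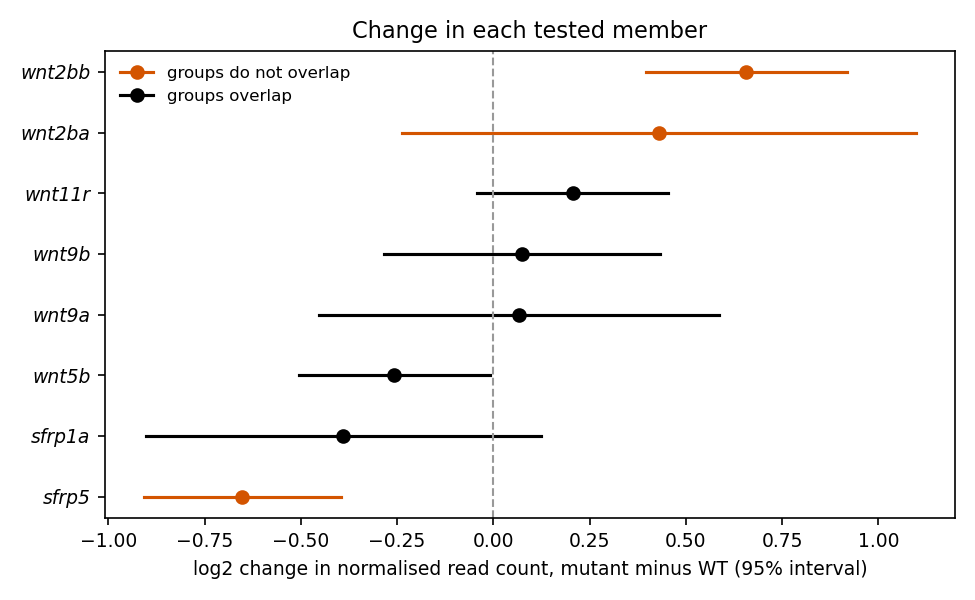
Log2 change in normalised read count, mutant minus WT (horizontal axis), of the 8 tested genes, with points for the estimate and lines for the 95% interval from limma; orange marks genes whose mutant and WT values do not overlap. The intervals of *wnt2bb* (0.40 to 0.92), *sfrp5* (−0.91 to −0.39) and *wnt5b* (−0.51 to −0.01) leave out 0, and none of the 8 genes passed after adjustment over all tested genes.

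Of 13 lists of cell type markers, 5 had summed values that did not overlap between the genotypes, in the same pools that gave the *wnt2bb* and *sfrp5* values, and their part in those results was not tested. The 8 endocardial and endothelial markers summed to 11221 to 12196 in mutant and 9432 to 10637 in WT hearts, with *cdh5* the largest part. Of the 8, 3 (*cdh5*, *tie1* and *nfatc1*) were higher in every mutant pool, beside 5.57% of all tested genes. The other 5 overlapped, with log2 changes from −0.09 (*tek*) to 0.08 (*fli1a*). The 8 markers of the atrioventricular canal and valve summed to 12245 to 13244 in mutant and 10318 to 11410 in WT hearts. *notch1b* made the largest part of that sum. Of the 8, 6 were higher in every mutant pool, beside 5.57% of all tested genes. The other 2 overlapped, *bmp4* with a log2 change of 0.21 and *klf2a* with one of −0.31. *klf2a* had 552, 503 and 465 in mutant and 691, 668 and 535 in WT hearts. The other 3 lists were lower in mutant hearts. The 5 epicardial markers summed to 520 to 671 in mutant and 681 to 876 in WT hearts. Of the 5, 2 (*tcf21* and *wt1b*) were lower in every mutant pool, beside 5.53% of all tested genes. The other 3 overlapped, with log2 changes of −0.41 (*tbx18*), −0.23 (*wt1a*) and −0.225 (*aldh1a2*). The 8 liver and yolk markers, 6 of them above 0 in every library, summed to 4689 to 8466 in mutant and 8607 to 12468 in WT hearts. *ttr* was under 10 in every library. Of the 6 that were tested, only *fgb* was lower in every mutant pool, beside the same 5.53% of all tested genes. *fabp10a* was also lower in every mutant pool, but it was too low to be tested and lies outside that share. Gut and pharyngeal endoderm sums are given above, and each of those 6 genes overlapped. No listed marker found in the table was at 0 in all 6 libraries. The sums of the other 8 lists (heart muscle, outflow tract, venous pole and pacemaker, blood, cartilage, skin, skeletal muscle and neural genes) overlapped between the genotypes. The 5 venous pole and pacemaker markers summed to 2377 to 2557 in mutant and 2034 to 2403 in WT hearts. *hcn4* and *bmp4*, the latter also in the valve list, made most of that sum. Log2 changes were 0.23 for *hcn4*, 0.21 for *bmp4* and 0.07 for *shox2*. They were −0.12 for *isl1* and −0.41 for *tbx18*, and each of the 5 overlapped. Without WT replicate 3, the pool with the highest *foxa3* (144) and *fabp10a*, the log2 change was 0.62 for *wnt2bb* and −0.65 for *sfrp5*. The adjusted p in that fit was 0.266 for each of them (limma). That pool also had the lowest liver and yolk sum of the WT pools, 8607 against 8880 and 12468. The part of liver or gut tissue in these changes was not tested.

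The rest of the pathway was then read in the same fit, from 8 lists ordered by role. Of 22 receptor and co-receptor genes listed, 18 were found by name and 17 were tested. Of the 17, 1 fell and none rose past the threshold. The gene that fell was *fzd5*, a Frizzled receptor gene, with 83, 92 and 101 normalised counts in mutant hearts and 176, 194 and 224 in WT hearts. Its log2 change was −1.09 (SE 0.152, limma, adjusted p = 0.0123), and the call was lost when mutant replicate 1 (adjusted p = 0.0777) was left out, and likewise mutant replicate 2 (0.0770) and WT replicate 3 (0.120). Without a variance trend the call was lost too (limma, adjusted p = 0.373). At an unadjusted p under 0.05, 4 receptor genes were higher and 1 was lower, beside 3.25% higher and 3.35% lower over all tested genes. *fzd10* had 170, 161 and 153 in mutant and 116, 123 and 132 in WT hearts, groups that did not overlap, with a log2 difference of 0.38 (SE 0.138, adjusted p = 0.595). The co-receptor gene *lrp5* stood at 980, 975 and 951 in mutant and 993, 890 and 1073 in WT hearts. *fzd7a* stood at 903, 940 and 918 in mutant and 890, 790 and 941 in WT hearts.

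None of the other ligand and antagonist genes that were tested passed. The table holds 18 further rows of Wnt ligand genes, of which 7 were tested and 2, both annotated *wnt8a*, were at 0 in every library. Among them, *wnt7aa* had 133, 161 and 133 in mutant and 135, 162 and 140 in WT hearts, nearly level, with a log2 difference of −0.03. *wnt6b* had 54, 77 and 69 in mutant and 48, 44 and 59 in WT hearts, with a log2 difference of 0.39 (SE 0.222, adjusted p = 0.820). Of 17 other antagonist genes listed, 15 were found in the table and 11 were tested. None of the 11 passed, and their median log2 change was −0.09. *dkk1b*, whose product blocks the Lrp co-receptors, had 22 in each mutant pool and 14, 3 and 13 in WT hearts. All mutant pools were above all WT pools, and at these low values the log2 difference of 1.28 carried an SE of 0.502 (adjusted p = 0.683). *wif1*, which encodes a Wnt-binding inhibitor, had 170, 146 and 118 in mutant and 98, 94 and 151 in WT hearts. *sfrp2*, a relative of the members *sfrp1a* and *sfrp5*, had 108, 133 and 124 in mutant and 91, 124 and 126 in WT hearts. Another relative, *sfrp1b*, had 11, 12 and 6 in mutant and 5, 2 and 5 in WT hearts. Its mutant pools were above all WT pools, but it was too low to be tested. *draxin* had 14, 20 and 7 in mutant and 17, 30 and 29 in WT hearts (adjusted p = 0.755).

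**Figure D3:**
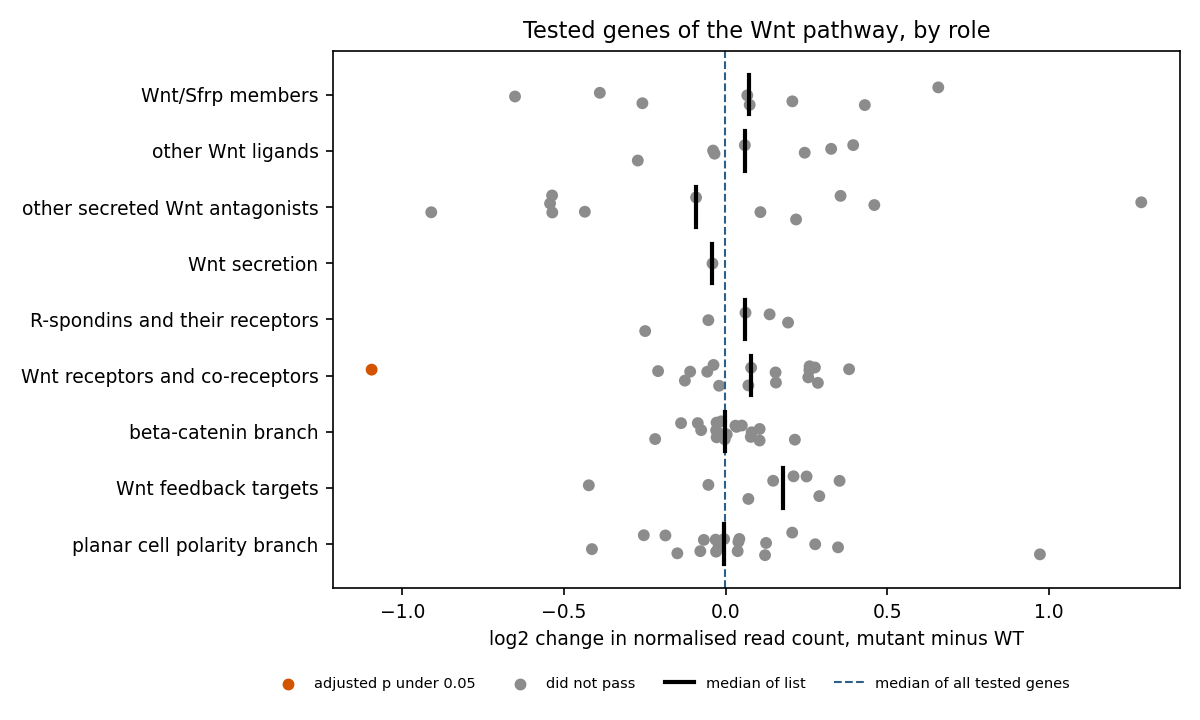
Log2 change, mutant minus WT (horizontal axis), of every tested gene in the 10-gene group and in 8 lists of other Wnt pathway genes; black bars are list medians, the dashed line is the median of all 18901 tested genes (−0.0029), and orange marks an adjusted p under 0.05. The single orange point is *fzd5*, at −1.09, and the list medians lie between −0.09 (other antagonists) and 0.18 (feedback targets).

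For release and uptake of ligands, *wls*, the carrier that brings Wnts to the cell surface, stood at 477, 396 and 473 in mutant and 470, 435 and 478 in WT hearts; its log2 difference was −0.04 (95% interval −0.27 to 0.18). *porcn*, the enzyme that adds the lipid, stayed under the value needed for the test. None of the 5 tested R-spondin and R-spondin receptor genes passed. Among them *lgr4*, a receptor gene, had 531, 515 and 512 in mutant and 542, 539 and 536 in WT hearts. Those groups did not overlap, and the log2 difference was −0.05 (95% interval −0.25 to 0.14). *znrf3*, whose product removes Frizzled receptors, had 352, 407 and 381 in mutant and 375, 353 and 363 in WT hearts.

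Inside the cell, none of the 19 tested beta-catenin branch genes (22 listed) and none of the 19 tested planar cell polarity genes (20 listed) passed. Their median log2 changes were −0.0032 and −0.0049. Beta-catenin itself, *ctnnb1*, had 3376, 3494 and 3485 in mutant and 3304, 3155 and 3172 in WT hearts. All its mutant pools were above all WT pools, and the log2 difference was 0.10 (95% interval −0.06 to 0.27, limma, adjusted p = 0.868). In the polarity list *prickle3*, a cytoplasmic polarity gene, had 643, 716 and 624 in mutant and 515, 492 and 550 in WT hearts. Those groups did not overlap, and the log2 difference was 0.35 (SE 0.0967, adjusted p = 0.391). *daam1a*, a formin of this branch, had 431, 462 and 397 in mutant and 492, 457 and 596 in WT hearts (log2 difference −0.25, adjusted p = 0.754).

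Genes that beta-catenin signalling is known to raise gave 6 of 8 log2 changes above 0 and a median of 0.18, and none passed. Of all tested genes, 49.47% were above 0, with a median of −0.0029. This list too was written with earlier results known, and a change in pathway activity was not tested. *axin2*, a feedback inhibitor often read as a measure of pathway activity, had 658, 640 and 637 in mutant and 604, 549 and 596 in WT hearts. All mutant pools were above all WT pools, and the log2 difference was 0.15 (SE 0.0905, 95% interval −0.05 to 0.34, limma, adjusted p = 0.845). *nkd1*, another feedback inhibitor, had 319, 339 and 332 in mutant and 327, 247 and 243 in WT hearts, with a log2 difference of 0.29 (adjusted p = 0.740). *ccnd1*, a cyclin gene, had 1013, 967 and 1035 in mutant and 986, 895 and 993 in WT hearts. *myca*, a Myc gene, lay on the other side of 0, with 74, 74 and 71 in mutant and 90, 94 and 112 in WT hearts (log2 difference −0.42, adjusted p = 0.704). All its mutant pools were below all WT pools, and its unadjusted p of 0.0278 (limma) was the lowest of the 8. In this list 2 genes were higher and 1 was lower without overlap, beside 5.57% and 5.53% of all tested genes.

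Over the 6 libraries, the Wnt pathway gene whose log2 values followed *wnt2bb* most closely was *fzd10* (Pearson r = 0.937), then *prickle3* (0.868). For *sfrp5* it was *fzd5* (0.972), then *dkk3b* (0.892). For each member these are the 2 highest of 94 genes compared, over 6 points that fall into 2 genotypes, and in all 6 of these genes the mutant and WT pools did not overlap. *dkk3b*, a Dickkopf family gene, had 43, 41 and 45 in mutant and 62, 62 and 52 in WT hearts.

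The adjusted p moved across the threshold under 2 of the 16 processing alternatives for *wnt2bb* and under 1 of them for *sfrp5*. With robust variance moderation, an option of limma that limits the influence of unusually variable genes, both passed, at 0.0276 for *wnt2bb* and 0.0359 for *sfrp5*, where 22 genes passed in all. Without WT replicate 2, *wnt2bb* was the 1 member that passed, and 43 genes passed in all. Without a variance trend the values were 0.609 for *wnt2bb* and 0.527 for *sfrp5*. The log2 change kept its sign in every alternative, between 0.58 and 0.76 for *wnt2bb* and between −0.69 and −0.58 for *sfrp5*. Filter, variance moderation, variance trend and replicate block settings do not alter a gene's log2 change, so only the other alternatives could move it.

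**Figure D4:**
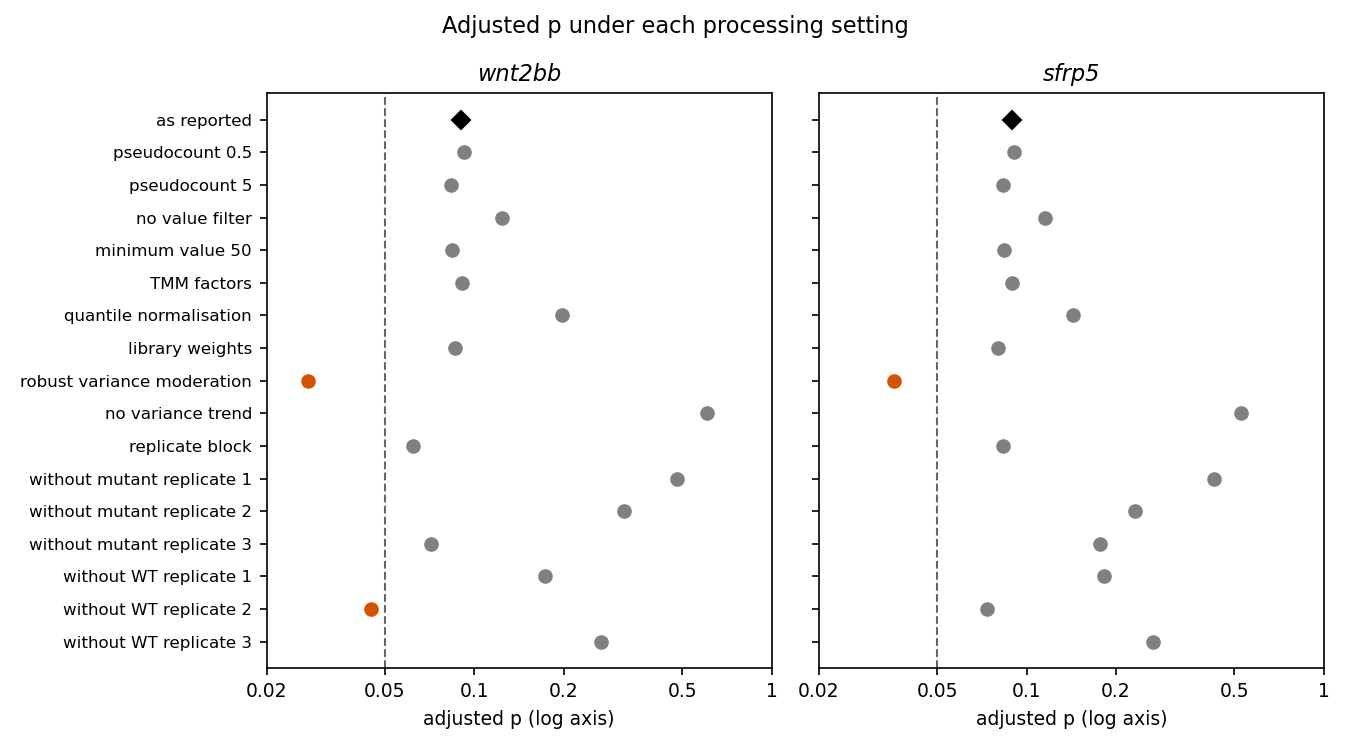
Adjusted p (horizontal axis, log scale) of *wnt2bb* and *sfrp5* as reported (black diamonds) and under 16 alternatives (circles); the dashed line is the threshold of 0.05, and orange circles are below it. Both genes were below it with robust variance moderation, *wnt2bb* also without WT replicate 2, and every other point lies above it, up to 0.609.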

How the data were processed

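RNA of 3 mutant and 3 WT pools of 23 hearts was sequenced. STAR 2.4.0a, featureCounts 1.4.5-p1 and the GRCz10 assembly are named in the submitters' processing notes; how reads were counted and scaled they do not say. The deposited values are a score: counts scaled by the authors and rounded, as the values show. Some whole numbers up to 100 are missing from 3 libraries (7, 5 and 12 of them in mutant replicates 2 and 3 and WT replicate 2). Raw depth is therefore not used, and count models were not run. Without transcript lengths, levels of different genes were not compared as results. Values of different genes served only to choose genes to name and to say which weighed most in a marker sum. Those sums are not corrected for length, so they follow the genes with the most counts.

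Values were analysed as log2(value + 1), which understates changes of low genes. Genes at 10 or more in at least 3 libraries were tested with limma 3.58.1 (R 4.3.3), variance trend, two-sided, Benjamini-Hochberg over 18901 genes, threshold 0.05. The fit was checked on simulated data. Their spread followed a smooth trend on the mean, so the check does not bear on genes that depart from such a trend. The design text calls the replicates biological.

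Members, pathway lists and markers were chosen with earlier results of these data known. Named were all members, *wwtr1*, and per list each called gene and up to 2 genes of highest mean and 2 of lowest p; others were named after their values were seen. Alternatives covered pseudocount, filter, scaling, weights, variance moderation, replicate block and left-out libraries. All 10 identifiers matched the gene name table. Sequences were not used here.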

Additional observations from a re-analysis of the deposited data

How the results depend on the processing

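The 8 tested members were refitted under up to 16 alternatives, 126 refits in all. In 120 of these a member kept its direction and its side of the threshold, in 3 it passed and in 3 its sign turned. Direction could not turn under the filter, variance moderation, variance trend and replicate block settings, which leave a gene's log2 change as it was. The passes were *wnt2bb* and *sfrp5* with robust variance moderation, where 2 members and 22 genes passed, and *wnt2bb* without WT replicate 2. The sign turned for *wnt9a* without WT replicate 1 (−0.12, range over left-out libraries −0.12 to 0.23) and for *wnt9b* without mutant replicate 1 (−0.03) and without WT replicate 3 (−0.10; range −0.10 to 0.20). With each library left out in turn, 0 to 1 members and 5 to 43 of all genes passed; 43 was without WT replicate 2 and 11 without WT replicate 1. Without a variance trend 0 genes passed by limma, while 1176 had an unadjusted p under 0.05. *wnt2ba* and *wnt9a* had no value with a minimum of 50. Scaling by TMM or quantiles left the median change of all tested genes between −0.0045 and 0.00062. The cause of these shifts was not tested.

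Same-numbered mutant and WT libraries did not deviate together, with correlations of 0.0217, −0.0223 and −0.0178 for numbers 1, 2 and 3. A replicate block raised the calls to 15 genes and left the members at 0 calls, with 3 members at an unadjusted p under 0.05.

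Low values limit some members: *wnt5a* and *wnt11* fell below the filter for the test, and the 95% interval of *wnt2ba* spans −0.24 to 1.098. Whether shallow sequencing or low expression gave these values was not tested. With 3 pools a genotype, each p-value rests on the gene's spread between these pools and on a variance trend over all tested genes.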
